A study of Mus musculus with 6 samples.

Results

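EpCAM+ cells sorted from the liver of 4-week-old DDB1F/F;Alb-Cre+/+ mice were compared with EpCAM+ cells sorted from the liver of mice on the DDC diet, across 11104 genes that were above background on at least 1 of the 2 arrays, out of 19057 genes with a probe. Of these, 8591 were above background on both arrays, 814 on the Alb-Cre+/+ array only and 1699 on the DDC array only. A probe was taken as above background where its detection p against the negative control probes of its array was under 0.05. The series holds 6 arrays, 1 for each condition, so no difference has a replicate check and no p-value is given.

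In the DDB1F/F;Alb-Cre+/+ mouse both copies of Ddb1 are flanked by loxP sites, and Cre driven by the albumin promoter, which is active in hepatocytes, is carried in 2 copies. DDB1 is the adaptor of the CUL4 ubiquitin ligase, and it is deleted there in hepatocytes and not by design in ductal cells. DDC (3,5-diethoxycarbonyl-1,4-dihydro-collidine) is a porphyrinogenic compound that blocks heme synthesis, injures bile ducts and hepatocytes, and was fed to wild type mice. The other arrays were EpCAM+ cells of 6-week-old DDB1F/F;Alb-Cre+/- mice, with 1 copy of the same transgene, EpCAM+ cells of DDB1F/F;Mx1-Cre+/- mice, in which Cre is induced through an interferon-responsive promoter, and hepatocytes of DDB1F/F;Alb-Cre+/+ and of wild type mice. All mice were of a mixed C57BL/6 x 129 strain. The labels give no age for the DDC mice, no sex for any mouse and no number of animals behind an array, and they name the tissue as mammary, whereas the study describes liver. Cells of the non-parenchymal fraction were stained with antibodies to EpCAM and to F4/80, a macrophage surface protein, and sorted. The study describes the cells taken from the mutant liver as F4/80-negative, a gate that leaves out F4/80+ macrophages.

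Oval cells are the small ductal cells that expand around the portal tracts when hepatocytes cannot divide, and they carry features of bile duct epithelium such as keratin 19 and EpCAM. In the liver they lie beside sinusoidal endothelium, stellate cells, resident macrophages and dendritic cells. A value from such a preparation is an average over all cells in it, so that fewer cells of a type and less RNA per cell cannot be told apart.

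On the arrays compared, the targeted gene Ddb1 read 259 normalized intensity units in Alb-Cre+/+ cells and 317 in DDC cells (1.23-fold apart), beside 499 in wild type and 169 in mutant hepatocytes. Epcam was dim on both, at 125 and 177, and not above background in either hepatocyte array. Among 15 markers of the sort and of oval cells above background, 3 were over 2-fold higher and 3 over 2-fold lower in Alb-Cre+/+ cells, and Sox9, a transcription factor of duct cells, differed by a log2 fold of -0.22. When each array was scaled by its median instead, 1 of these markers was higher and 6 were lower. Krt7, a keratin of duct cells, differed by 0.35. The raw DDC array was the brighter of the pair, with a mean signal of 671.7 against 308.7 before normalization and 17152 probes above background against 14942. The median standard error over beads was 5.96% and 5.65% of the signal, and the median error it gives a log2 fold was 0.127, which covers the beads of 1 array and not the spread between mice.

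The arrays differed in sex-linked transcripts. Xist, the RNA made from the inactive X chromosome of female cells, read 1907 in Alb-Cre+/+ cells and 2094 in Alb-Cre+/- cells, was not above background in DDC cells, Mx1-Cre cells or wild type hepatocytes, and read 120.5 in mutant hepatocytes. Eif2s3y, a Y-linked translation factor, read 2278 in DDC cells, 1880.3 in Mx1-Cre cells and 1825 in wild type hepatocytes and was not above background on the other 3 arrays. Kdm5d, a Y-linked histone demethylase, was above background on the same 3 arrays, at 131, 135 and 207. The RNA of the Alb-Cre+/+ cells thus carried the female transcript and that of the DDC cells the male ones, and sex, age and model cannot be told apart in any difference below. Of 337 X-linked genes above background, 25 (7.42%) were over 2-fold higher and 13 (3.86%) over 2-fold lower. Kdm6a, chosen after its value was seen, an X-linked histone demethylase that escapes X inactivation, was 2.65-fold higher in Alb-Cre+/+ cells (1774 against 669.8), and read 611 in Alb-Cre+/- cells, which carried Xist as well.

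A difference of more than 2-fold, the threshold of the study's methods, was found for 1749 genes (15.8%). In Alb-Cre+/+ cells 891 genes (8.02%) were over 2-fold higher and 858 (7.73%) over 2-fold lower than in DDC cells. Among the 8591 genes above background on both arrays, 757 (8.81%) were higher and 704 (8.19%) lower. Past 5-fold the numbers were 111 higher and 63 lower, and past 10-fold they were 32 and 7. This balance follows the normalization: when each array was scaled by its median instead, the median log2 fold of all genes moved from 0.04 to -0.12 and the calls split into 605 higher and 1684 lower. The share of calls that were higher was 50.9% after quantile normalization and 26.4% after median scaling.

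**Figure D1:**
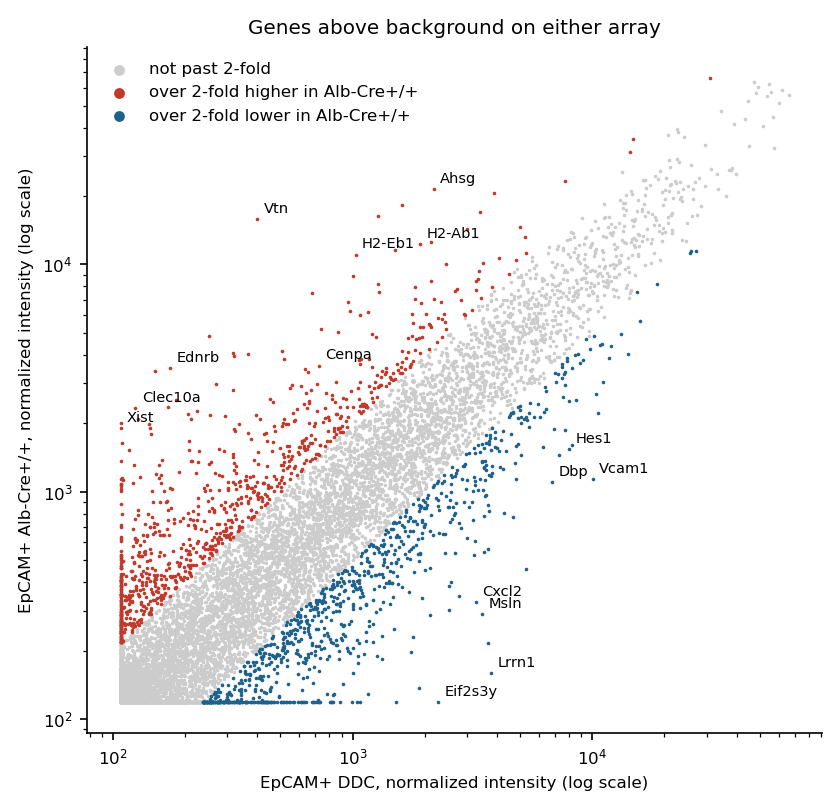
Normalized intensity (log scale) of each of 11104 genes in EpCAM+ DDC cells (x axis) and EpCAM+ Alb-Cre+/+ cells (y axis), with signals below the lowest one above background raised to it. The 891 genes over 2-fold higher in Alb-Cre+/+ cells lie above the grey band and the 858 lower ones below it; genes along the left and bottom edges were above background on 1 array only.

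The genes furthest apart were mostly higher in Alb-Cre+/+ cells. Vtn, vitronectin, an adhesive protein of plasma and matrix, was 39.5-fold higher (15832 against 401). Serpinf1, the antiangiogenic serpin PEDF, was 22.5-fold higher at its brighter probe, while its other probe gave a log2 fold of 0.09. Ednrb, a receptor for endothelins, was 20.2-fold higher. Rarres2, the chemoattractant chemerin, was 19.3-fold higher. Clec10a, a galactose-binding lectin of dendritic cells and macrophages, was 18.8-fold higher. Each of these genes was above background on both arrays. Behind them stood Apoa1 (16.5-fold), Afp (15-fold), Serpina1e (14.1-fold), Rbp4 (13.8-fold) and Igfbp5 (13.8-fold), of which the first 4 encode proteins that liver secretes and the last an IGF-binding protein.

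Among the genes not above background in DDC cells, the largest lower bounds were for Abcb4, the canalicular phospholipid flippase of hepatocytes (at least 18.7-fold higher, 2010.0 in Alb-Cre+/+ cells), Xist (at least 17.7-fold higher), Serpinf2, which encodes the plasmin inhibitor alpha2-antiplasmin (at least 12.7-fold higher), Tenm4, a teneurin (at least 10.5-fold higher), and Ftcd, an enzyme of histidine and folate metabolism in hepatocytes (at least 10.1-fold higher). Each bound divides the signal by the lowest signal above background on the other array, 107.6 for DDC and 118.5 for Alb-Cre+/+. In the other direction Lrrn1, a leucine-rich repeat neuronal protein, was 23.7-fold lower in Alb-Cre+/+ cells (159.6 against 3779). Plekhs1, a pleckstrin homology protein, was 17.2-fold lower, Syne4, which links the nucleus to kinesin, 13.8-fold lower, Msln, the surface glycoprotein mesothelin, 12.1-fold lower, and Tbc1d2, a Rab GTPase-activating protein, 11.6-fold lower. Of 7 mesothelial markers 3 were higher (42.9%) and 2 lower (28.6%), beside 8.02% and 7.73% of all genes. The chemokine gene Cxcl2 was 9.95-fold lower, Tdrkh, a Tudor domain protein, 8.98-fold lower, Rasgrp1, a Ras activator, 8.86-fold lower, the adhesion molecule gene Vcam1 8.84-fold lower and Aif1l, an actin-binding protein, 8.37-fold lower. Among the genes not above background in Alb-Cre+/+ cells the largest bounds were for Eif2s3y (at least 19.2-fold lower), the homeobox gene Pou6f1 (at least 12.8-fold lower), the axonemal gene Drc1 (at least 9.03-fold lower, with a log2 fold of -0.00 at its other probe), Tmem25 (at least 8.77-fold lower) and Mns1, a structural gene of motile cilia (at least 8.41-fold lower).

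**Figure D2:**
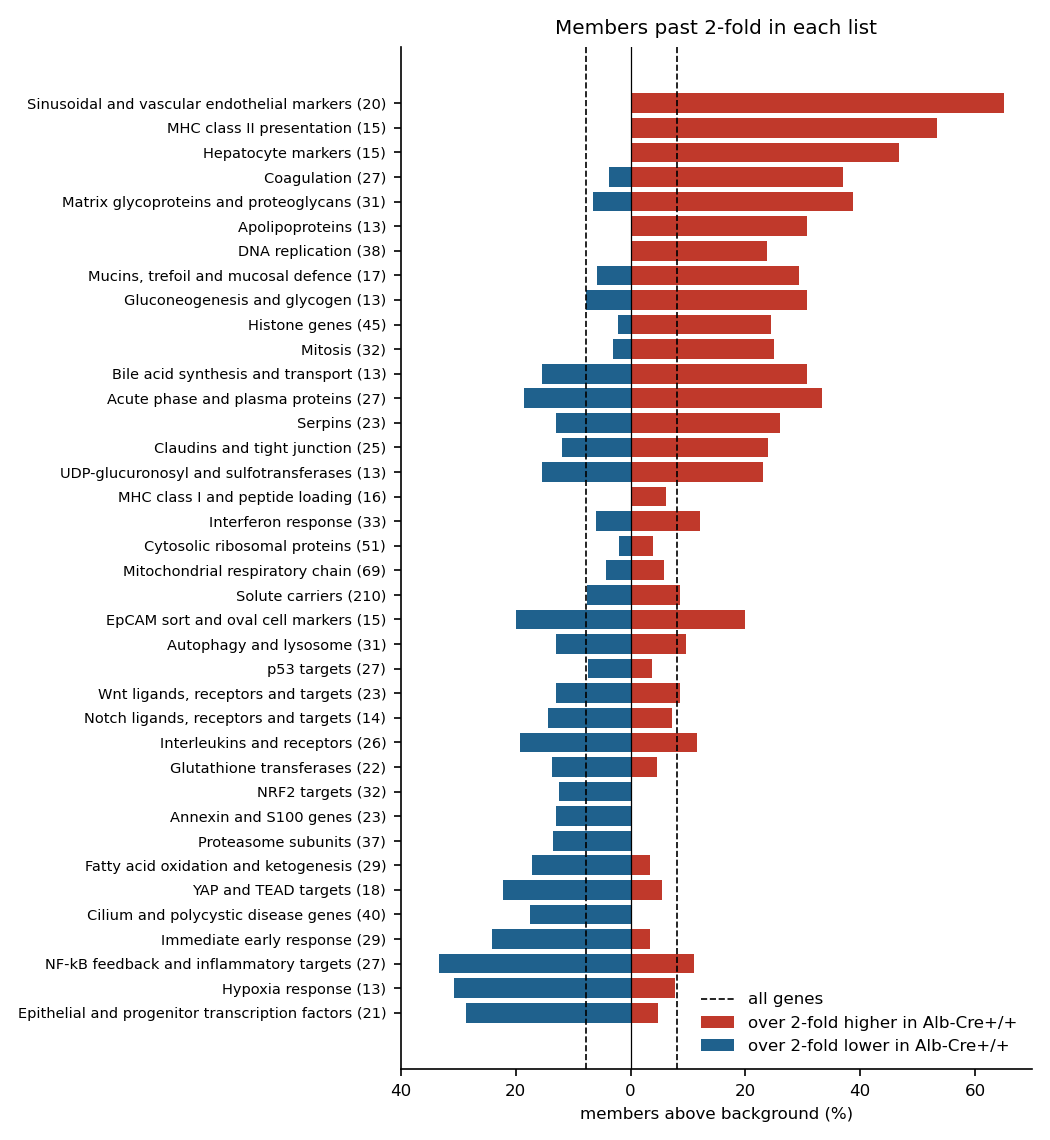
Share of the members above background (x axis, %) that were over 2-fold higher (red, to the right) or lower (blue, to the left) in EpCAM+ Alb-Cre+/+ than in EpCAM+ DDC cells. The gene lists are those furthest from the background and 6 lists near or below it, each with 13 or more members above background. The number of members above background stands in brackets. The dashed lines mark all genes, 8.02% higher and 7.73% lower.

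Most MHC class II genes were higher in Alb-Cre+/+ cells. Class II molecules present peptides from ingested protein to CD4+ T cells: H2-A and H2-E heterodimers are assembled on the invariant chain Cd74, and H2-DM, opposed by H2-O, loads the peptide. Of 15 genes of class II presentation above background 8 were over 2-fold higher and 0 over 2-fold lower, and their median log2 fold was 1.54, against 0.04 over all genes. Before the values, the stretches upstream of 5 of these genes are shown because they hold the CCAAT box, GATTGG (the Y box of class II promoters, read on both strands), written in capitals. The 120 bases that end just before the gene start are given 5′ to 3′ in the direction of the gene, from RefSeq on build GRCm38.p6.
H2-Eb1 (chr17:34305747-34305866, plus strand): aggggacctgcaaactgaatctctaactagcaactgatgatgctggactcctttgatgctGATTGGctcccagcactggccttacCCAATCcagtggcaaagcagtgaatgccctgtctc
H2-Aa (chr17:34287824-34287943, minus strand): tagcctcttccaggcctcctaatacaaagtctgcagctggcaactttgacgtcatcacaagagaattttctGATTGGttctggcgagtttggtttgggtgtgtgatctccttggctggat
H2-DMb2 (chr17:34145129-34145248, plus strand): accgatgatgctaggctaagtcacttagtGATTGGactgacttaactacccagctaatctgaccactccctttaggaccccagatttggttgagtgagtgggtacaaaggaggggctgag
H2-Oa (chr17:34092259-34092378, plus strand): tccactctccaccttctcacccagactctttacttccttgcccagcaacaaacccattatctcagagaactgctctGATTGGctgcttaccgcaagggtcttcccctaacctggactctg
H2-Ob (chr17:34238785-34238904, plus strand): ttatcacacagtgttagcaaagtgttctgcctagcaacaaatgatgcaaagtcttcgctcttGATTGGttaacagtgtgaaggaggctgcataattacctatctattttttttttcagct
GATTGG lay in the 250 bases before and 50 after the start of 8 of the 11 class II presentation genes with a promoter entry (72.7%), and in that of 18.2% of all 27025 genes with one. A match describes letters in a window and not a bound site.

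Among the chain genes of the class II dimers 3 were bright, and H2-Eb2 was dim on both arrays (149 and 109.6, a log2 fold of 0.44). H2-Ab1 read 12285 in Alb-Cre+/+ cells and 1911 in DDC cells, beside 2873 in Alb-Cre+/- cells, 3244 in Mx1-Cre cells, 2541 in mutant hepatocytes and 204 in wild type hepatocytes. H2-Eb1 read 11043, 1029, 1376, 1952, 1712 and 168 on the same arrays in that order. H2-Aa read 8234 in Alb-Cre+/+ cells and 1281 in DDC cells. The Alb-Cre+/+ array was the highest of the 6 for each of these genes, and the other EpCAM+ arrays lay between 1029 and 1952 for H2-Eb1. The folds between the arrays compared were 10.7 for H2-Eb1, 6.43 for H2-Ab1 and 6.43 for H2-Aa.

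The genes of the loading machinery followed. H2-DMa, a chain of the peptide exchange factor, was 8.54-fold higher (2166 against 254), H2-DMb2 was 4.14-fold higher, and H2-DMb1 had a log2 fold of 0.97. H2-Oa was 10.5-fold higher, and H2-Ob, its partner, was above background in Alb-Cre+/+ (487) and Alb-Cre+/- cells (163) only and was at least 4.53-fold higher. The invariant chain Cd74 was 2.9-fold higher (6806 against 2348). Ciita, the coactivator that switches on the class II genes, was dim on both arrays, at 176 and 159, a log2 fold of 0.15. The endosomal proteases and reductase of the list did not pass 2-fold, with log2 folds of 0.95 for Ctss, 0.92 for Ifi30, 0.11 for Ctsh and -0.49 for Lgmn. The MHC class I and peptide loading genes gave 1 higher and 0 lower of 16, with a median of -0.02.

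Genes of leukocytes stood beside the class II genes. Of 9 dendritic cell markers above background 3 were over 2-fold higher (33.3%, beside 8.02% of all genes). They were Clec10a (above), Siglech, a lectin of plasmacytoid dendritic cells (636 against 139), and Irf8, a transcription factor of the lineage (488 against 186). The dendritic cell genes Itgax, Flt3, Xcr1 and Clec9a were not above background on either array. Of 19 genes shared by leukocytes, a list drawn up after values were seen, 15 were above background and 7 of these over 2-fold higher, with Cd52 8.18-fold, Cd53 5.82-fold, the lysosomal gene Laptm5 5.02-fold and the actin regulator Coro1a 4.14-fold. Their summed signal was 29210 in Alb-Cre+/+ and 7087 in DDC cells, while the pan-leukocyte gene Ptprc was not above background on either array. Among 7 macrophage markers above background Timd4, a receptor for phosphatidylserine, was the 1 past 2-fold (516 against 121), and the Kupffer cell genes Clec4f, Vsig4 and Marco were not above background. Among 7 lymphocyte markers Cd79b, a chain of the B cell receptor, was the 1 past 2-fold (at least 3.1-fold higher), with Ms4a1 not above background. Among integrins the gut-homing chain of leukocytes Itgb7 was 8.54-fold higher. Outside the lists, and chosen after its value was seen, the immunoglobulin heavy chain gene Ighg1 was 13.1-fold higher. What share of the class II signal such cells carried was not tested.

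**Figure D3:**
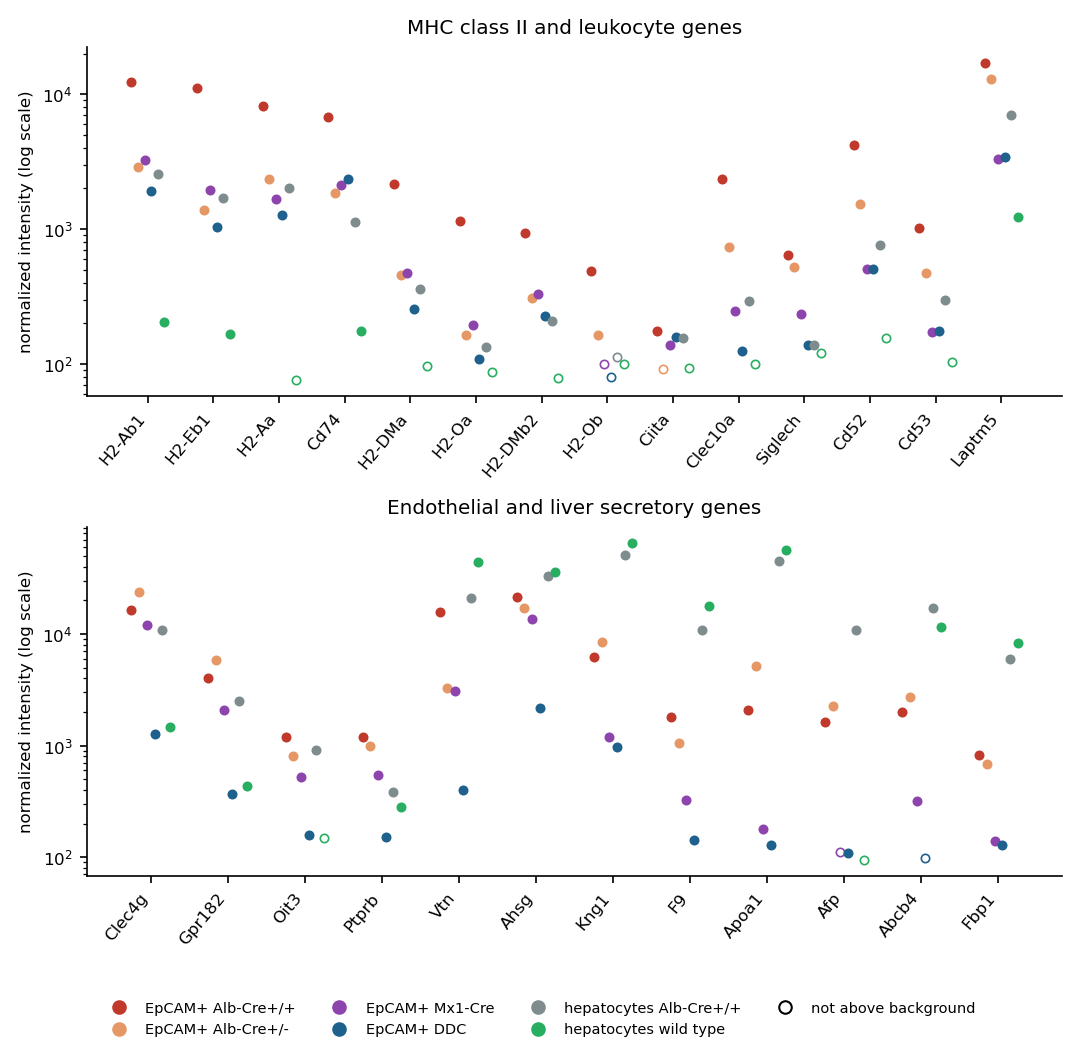
Normalized intensity (log scale) on the 6 arrays, coloured by condition, of MHC class II and leukocyte genes (upper panel) and of endothelial and liver secretory genes (lower panel); open circles were not above background. The class II chain genes were highest in EpCAM+ Alb-Cre+/+ cells (H2-Ab1 at 12285), and Apoa1 was far brighter in wild type hepatocytes (57308) than in either EpCAM+ preparation compared (2092 and 127).

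Markers of liver sinusoidal and vascular endothelium formed the list with the largest share of higher members, 13 of 20 above background (65%), with 0 lower and a median log2 fold of 1.33. Over the 14 members above background on both arrays 8 were higher and 0 lower. By that stricter rule the share was no longer the largest, with hepatocyte markers at 6 of 10 and genes shared by leukocytes at 7 of 11. Clec4g, a lectin of sinusoidal endothelium, read 16337 with Alb-Cre+/+, 23781 with Alb-Cre+/-, 12143 with Mx1-Cre and 1275 with the DDC diet. The DDC array was thus the low one, and the 3 mutant arrays lay within 12143 to 23781. Gpr182, an atypical chemokine receptor of lymphatic and sinusoidal endothelium, followed the same order (4028, 5899, 2094 and 367). Oit3 was 7.46-fold higher, the phosphatase of endothelial junctions Ptprb 7.91-fold higher and the scavenger receptor Stab1 5.72-fold higher. Stab2, the hyaluronan scavenger receptor, was not above background in DDC cells and at least 9.52-fold higher in Alb-Cre+/+ cells. Coagulation factor VIII (F8) and von Willebrand factor (Vwf), which endothelium makes, were 3.52-fold and 3.36-fold higher. Among the general endothelial genes Pecam1 (0.76), Kdr (0.13), Tek (0.35) and Emcn (0.38) had log2 folds that did not pass 2-fold. Cdh5 and Flt1 did, with log2 folds of at least 1.37 and 1.43, both not above background in DDC cells.

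Part of the matrix genes was higher as well. Of 31 matrix glycoprotein and proteoglycan genes 12 were over 2-fold higher and 2 over 2-fold lower (median 0.42). Besides vitronectin these were Reln, the glycoprotein reelin (12.9-fold), the leucine-rich proteoglycan gene Prelp (11-fold), Spon2, a spondin that opsonizes bacteria (5.34-fold at 1 probe, with a log2 fold of 0.03 at the other), and Vcan, which encodes versican (at least 4.37-fold higher). Hspg2 and Nid1, which encode the basement membrane proteins perlecan and nidogen, were 3.55-fold and 2.43-fold higher, and so were their partners Col4a1 (2.12-fold) and Col4a2 (3.83-fold). The collagen list counted 4 higher (20%) and 1 lower (5%) of 20. Of 12 stellate cell and fibroblast markers 1 was lower (8.33%) and 2 were higher (16.7%). The lower one was Ecm1, a matrix protein of quiescent stellate cells (296 against 1256). The higher ones were Dcn, decorin, at 2001 against 700.1 and Col3a1 at 383 in Alb-Cre+/+ cells and not above background in DDC cells. Acta2 (0.57), Des (0.00) and Pdgfrb (0.05) did not pass 2-fold, and Col1a1 was not above background. With median scaling 1 stellate marker was higher and 2 were lower. Among matrix proteases and inhibitors, the membrane-type collagenase gene Mmp14 was 5.34-fold higher and the sheddase gene Adam17 5.86-fold higher at 1 of its 2 probes. The laminin-332 chain gene Lamb3 was 4.52-fold lower (784 against 3542), Timp3, an inhibitor of metalloproteases, 5.14-fold lower and Mmp7, matrilysin, 4.23-fold lower.

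Many genes of proteins that the liver secretes into plasma were higher in Alb-Cre+/+ cells. Of 27 coagulation genes 10 were over 2-fold higher and 1 lower, of 13 apolipoprotein and related genes 4 higher and 0 lower, of 23 serpins 6 higher and 3 lower, and of 15 hepatocyte markers 7 higher and 0 lower (median 0.95). F9, coagulation factor IX, read 1795 with Alb-Cre+/+, 1057 with Alb-Cre+/-, 322 with Mx1-Cre and 144 with the DDC diet, and 17933 in wild type hepatocytes. The Alb-Cre arrays were the higher ones among the EpCAM+ preparations, and all 4 were far below the hepatocyte level. Ahsg, fetuin-A, was 9.8-fold higher (21376 against 2181), Kng1, kininogen, 6.41-fold higher, Apof 6.48-fold higher and Apom 5.4-fold higher. Serpina1e has near-identical copies whose transcripts its probe may read as well. Alb, Apoa2, Fgb and Asgr1 were not above background on either array.

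Some fetal and metabolic genes of hepatocytes were higher as well. Afp, alpha-fetoprotein, the albumin-like plasma protein of fetal liver, read 1635 in Alb-Cre+/+, 2270.4 in Alb-Cre+/- and 109 in DDC cells and 10819 in mutant hepatocytes, and was not above background in Mx1-Cre cells or wild type hepatocytes. Igf2, the fetal growth factor, read 428 in Alb-Cre+/+ cells, 554 in Alb-Cre+/- cells and 36225 in mutant hepatocytes and was not above background on the other 3 arrays. Igf2bp3, an RNA-binding protein of fetal tissue, was 8.95-fold higher, although a probe of its 3 gave a log2 fold of -0.29. Fbp1 and G6pc, enzymes of gluconeogenesis, were 6.48-fold and 6.14-fold higher. Of 13 gluconeogenesis and glycogen genes 4 were higher (30.8%) and 1 lower (7.69%), with a median of -0.01. Of 27 urea cycle and amino acid genes 4 were higher (14.8%) and 1 lower (3.7%). Over all genes 8.02% were higher and 7.73% lower. Cyp27a1, which starts the acidic pathway of bile acid synthesis, was 5.39-fold higher. The bile acid sensor Nr1h4 (FXR) went the other way, 3.16-fold lower (1128 against 3567), with the bile acid exporter Abcc3 3.32-fold lower. In an alternative, genes over 2-fold brighter in wild type hepatocytes than on each of the arrays compared were left out. Then 4 of 11 coagulation genes, 0 of 7 serpins, 0 of 3 apolipoprotein genes and 2 of 2 hepatocyte markers were over 2-fold higher. Over all genes 791 of 10097 were higher and 817 lower. A hepatocyte gene bright in Alb-Cre+/+ cells stays in through that signal, and mutant hepatocytes were not used. These counts therefore cannot show what remains without hepatocyte RNA. The part that hepatocyte RNA had in these folds was not tested.

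Acute phase genes did not share 1 direction. Of 27 acute phase and plasma protein genes 9 were higher (33.3%) and 5 lower (18.5%), beside 8.02% and 7.73% of all genes. The higher ones were secreted proteins such as Rbp4, the retinol carrier, Itih1, an inter-alpha-trypsin inhibitor chain (4.11-fold), and Azgp1 (3.12-fold). The lower ones were Hp, haptoglobin (891 against 2697), Serpina3n (134 against 357), Mt1, a metallothionein (11499 against 27068), Lcn2, the siderophore-binding lipocalin (11179 against 25478), and Socs3, a feedback inhibitor of cytokine signalling (2172 against 4553), each of which cytokines induce.

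Part of the replication and mitosis genes was higher in Alb-Cre+/+ cells. Of 38 DNA replication genes 9 were over 2-fold higher (23.7%) and 0 lower, with a median of 0.76, and of 32 mitosis genes 8 were higher (25%) and 1 lower, with a median of 0.41. Cenpa, the histone that marks centromeres, read 3589 with Alb-Cre+/+, 1388 with Alb-Cre+/-, 2481 with Mx1-Cre and 726 with the DDC diet. Bub1b, a kinase of the spindle checkpoint, read 1947, 965, 1922 and 471 on the same arrays. The DDC array was the lowest of the EpCAM+ arrays for both genes. Kif2c, a kinesin that takes microtubules apart, was 3.1-fold higher. Mcm10, which activates replication origins, was 4.34-fold higher, Mcm5, a subunit of the replicative helicase, 2.42-fold higher, and the GINS subunits Gins1 and Gins2 2.28-fold and 2.28-fold. Cdt1, the licensing factor that the DDB1-CUL4 ligase degrades in S phase, was 2.28-fold higher (1913 against 837, with 1998 and 1422 in the other mutants). The cyclin gene Ccna2 (0.35), the kinase genes Cdk1 (-0.25) and Plk1 (0.19) and the topoisomerase gene Top2a (0.37) had log2 folds that did not pass 2-fold. The replication count followed the normalization: with median scaling 2 of the replication genes were higher and 1 lower (median 0.31). The mitosis count moved less, to 6 higher and 1 lower (median 0.34). The DDB1-CUL4 ligase and its partners counted 1 higher (3.57%) and 2 lower (7.14%) of 28, not above the 8.02% and 7.73% of all genes.

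Histone genes gave 11 over 2-fold higher and 1 lower of 45 above background (24.4% and 2.22%). Of the higher ones 9 were H2A genes of the histone clusters and the others H4c1 and H4c11, and such transcripts are made in S phase and mostly lack a poly(A) tail. H2ac7 read 12559 with Alb-Cre+/+, 10963 with Alb-Cre+/-, 714 with Mx1-Cre and 2124 with the DDC diet. H2ac24 read 14374, 16403, 1118 and 3009, and H2ac22 7544, 7552, 424 and 1286. The arrays with Alb-Cre were high and close to each other, and the Mx1-Cre array was below the DDC array, unlike in Cenpa and Mcm5. H2A genes of a cluster are nearly identical in sequence, so that their probes may read each other's transcripts. The CCAAT box in the form GATTGG lay in 39 of 61 histone promoters (63.9%). This form alone is shown in capitals, on either strand, in the 120 bases before the starts of H2ac7 and H2ac24 (RefSeq, GRCm38.p6). Other CCAAT letters, as in H2ac7, were not counted and stay in lower case.
H2ac7 (chr13:23574261-23574380, plus strand): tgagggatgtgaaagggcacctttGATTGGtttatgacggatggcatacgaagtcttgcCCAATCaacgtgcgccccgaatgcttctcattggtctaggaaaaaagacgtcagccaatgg
H2ac24 (chr13:21833476-21833595, minus strand): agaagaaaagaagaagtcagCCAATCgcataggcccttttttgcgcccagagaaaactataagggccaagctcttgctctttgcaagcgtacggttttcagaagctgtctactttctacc
The genes of these promoters were 5.91-fold and 4.78-fold higher in Alb-Cre+/+ cells.

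**Figure D4:**
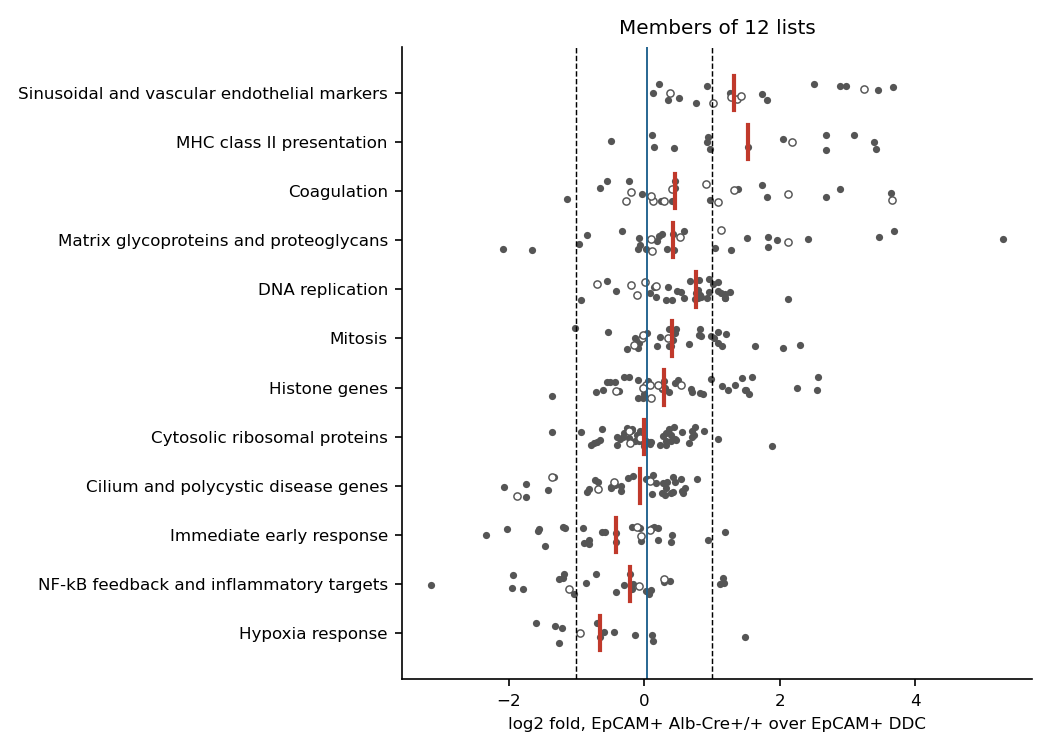
Log2 fold of EpCAM+ Alb-Cre+/+ over EpCAM+ DDC (x axis) of each member above background in 12 gene lists; open circles are bounds from genes above background on 1 array, red bars the medians, the blue line the median of all genes (0.04) and the dashed lines 2-fold. Endothelial markers and MHC class II genes lie to the right (medians 1.33 and 1.54), ribosomal proteins around 0 (median -0.01) and hypoxia genes to the left (median -0.65).

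A group of inflammatory genes was lower in Alb-Cre+/+ cells. NF-kB is held in the cytoplasm by inhibitors until cytokine or bacterial signals release it, and its targets include chemokines, adhesion molecules and its own inhibitors. Of 27 such genes above background 9 were over 2-fold lower (33.3%, against 7.73% of all genes) and 3 over 2-fold higher. Vcam1, an adhesion molecule for leukocytes, read 1137 with Alb-Cre+/+, 1756 with Alb-Cre+/-, 2167 with Mx1-Cre and 10053 with the DDC diet. Icam1 read 755, 1093, 759.8 and 2591, and Tnfaip3, the A20 deubiquitinase that ends NF-kB signalling, 495, 559, 601 and 1902. The DDC array was the high one for all of them and the mutant arrays lay together. Birc2, an inhibitor of apoptosis, was 3.84-fold lower, Tnf 2.29-fold lower and Lif 2.38-fold lower. Csf2, which encodes GM-CSF, was above background in DDC cells alone (256). The higher members were Il1b (2049 against 943) and the NF-kB subunit and cofactor genes Nfkb2 (2.27-fold) and Bcl3 (2.24-fold). Nfkbia, the most direct feedback inhibitor, had a log2 fold of -0.18. With median scaling 10 members were lower and 0 higher.

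Of 22 chemokine genes 2 were lower, Cxcl2 and Ccl2, attractants of neutrophils and of monocytes, and 1 was higher, Ccl4. These shares, 9.09% and 4.55%, were near or below those of all genes (7.73% lower and 8.02% higher). Cxcl2 read 328 with Alb-Cre+/+, 1236 with Alb-Cre+/-, 161 with Mx1-Cre and 3259.8 with the DDC diet, and Ccl2 read 268, 153, 139.6 and 1168. The DDC array was highest for both, and for Cxcl2 the other probe gave a log2 fold of -0.22. The 120 bases upstream of Cxcl2 are shown because they hold the NF-kB motif, GGGA and TTCC with 2 bases of any kind between them, in 2 overlapping copies on opposite strands that are written in capitals (RefSeq, GRCm38.p6).
Cxcl2 (chr5:90903779-90903898, plus strand): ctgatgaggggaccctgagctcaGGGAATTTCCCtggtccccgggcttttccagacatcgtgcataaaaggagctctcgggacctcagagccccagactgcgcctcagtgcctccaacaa
This motif lay in the promoters of 4 of 25 NF-kB target genes (16%) and of 1.63% of all genes. Il1r2, the decoy receptor for interleukin-1, was the interleukin receptor gene furthest above DDC cells, 7.34-fold higher (2161 against 294). Il20rb, a receptor chain for IL-20 and IL-24, was at least 3.71-fold lower, and Il13ra1, a receptor chain for IL-4 and IL-13, 3.52-fold lower. The interferon response genes gave 4 higher (12.1%) and 2 lower (6.06%) of 33, and 3 higher and 7 lower with median scaling. Among them Bst2, tetherin, was 4.51-fold higher and Gbp2, a guanylate-binding protein, 3.66-fold lower. The interferon-stimulated response element, GAAA repeated after 2 bases of any kind, lay in the promoters of 19 of 30 interferon response genes and of 3.99% of all genes.

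Immediate early genes, which serum, stress and tissue dissociation switch on within minutes, were split. Of 29 above background 7 were over 2-fold lower (24.1%) and 1 higher, with a median of -0.42. The zinc finger genes Egr2 and Egr3 were 5.05-fold and 2.93-fold lower, Gadd45a, a growth arrest gene, 4.07-fold, the AP-1 subunit gene Fosl2 2.97-fold, and Klf4 2.75-fold. Egr2 read 1444 with Alb-Cre+/+, 3204 with Alb-Cre+/-, 4694 with Mx1-Cre and 7288 with the DDC diet, so that the arrays compared were the lowest and the highest. Zfp36, which speeds the decay of cytokine mRNAs, read 11434 and 25746 and was lower as well. The AP-1 genes Fos and Jun and the zinc finger gene Egr1 did not pass 2-fold: Fos read 12818 in Alb-Cre+/+ and 23781 in DDC cells, Jun 4615 and 4169.6, and Egr1 63216 and 47514. Klf6, a Kruppel-like factor, was 2.29-fold higher, with a log2 fold of -0.07 at its other probe. With median scaling 13 members were lower and 0 higher. Of 13 hypoxia genes 4 were lower (30.8%, beside 7.73% of all genes), led by Ddit4, an inhibitor of mTORC1 (3.02-fold), and the histone demethylase gene Kdm3a (2.48-fold). Vegfa was 2.81-fold higher at 1 probe and at a log2 fold of -0.58 at the other.

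Several epithelial regulators were lower. Of 21 epithelial and progenitor transcription factors 6 were over 2-fold lower (28.6%) and 1 higher (4.76%). Hes1, the repressor that Notch induces and that biliary cells need, read 1537 with Alb-Cre+/+, 2376 with Alb-Cre+/-, 1829 with Mx1-Cre and 8026 with the DDC diet. Tfcp2l1, a grainyhead-like factor, read 2318, 2600.5, 2488 and 6393. For both the DDC array was the high one. Ovol2, a guard of the epithelial state, was 4.59-fold lower at 1 of its 3 probes, and Grhl2, a grainyhead factor of epithelial junctions, was above background in DDC cells (321) and not in Alb-Cre+/+ cells. Sox4 was 3.92-fold higher at 1 of 2 probes. Of 14 Notch pathway genes 1 was higher (7.14%) and 2 were lower (14.3%), Hes1 among the latter, beside 8.02% and 7.73% of all genes. Jag1 (0.97), Hey1 (0.84) and Notch1 (-0.65) did not pass 2-fold.

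Genes of the epithelial surface went both ways. Itgb6, the integrin chain that activates latent TGF-beta, was 5.73-fold lower, lower at all 4 probes. The keratin genes Krt17 (1139 against 3390.2) and Krt19 (2903 against 6357) were lower, and Krt8 (-0.44), Krt18 (-0.62) and Krt7 did not pass 2-fold. Of 25 claudin and tight junction genes 6 were higher (24%) and 3 lower (12%), and with median scaling 4 and 5. Over all genes the shares were 8.02% and 7.73%. Cldn4, a claudin of ducts, was 3.5-fold lower, while Cldn10, Cldn15 and Cldn5 were 4.62-fold, 3.76-fold and 3.2-fold higher, the last an endothelial claudin. Tjp1, the junction scaffold ZO-1, was 2.72-fold higher. Of 24 desmosome, adherens and gap junction genes 5 were higher (20.8%) and 2 lower (8.33%), and with median scaling 4 and 4. With the mean of all probes 3 of these junction genes were higher and 2 lower. Cdh1, E-cadherin, was 2.17-fold higher at its brightest probe (10413 against 4799.7). The study's supplement lists E-cadherin as slightly lower in mutant than in DDC cells, at a probe not compared here. Gjb2, a connexin of hepatocytes and epithelia, was 3.91-fold higher, whereas Cdh17, a cadherin of gut and bile duct epithelium, was at least 5.23-fold lower. Of 18 genes of YAP and TEAD factors and their targets 4 were lower (22.2%) and 1 higher (5.56%), with a median of -0.03. The lower ones included the factor genes Tead1 (-1.14) and Tead4 (a bound of -1.24). Fjx1, a Golgi kinase homologue, was 8-fold lower, and the classical targets Ccn1 (-0.71) and Ccn2 (0.03) did not pass 2-fold. Over the 16 members above background on both arrays 2 were lower and 1 higher. In the Wnt pathway, 23 genes gave 2 higher (8.7%, near the 8.02% of all genes) and 3 lower (13%). The ligands Wnt7a (386 against 2521) and Wnt7b (897 against 2907) and the receptor gene Fzd6 were lower. The beta-catenin targets Axin2 (461 against 146) and Sp5 (648 against 161) were higher. Of 28 genes of the TGF-beta family 4 were higher (14.3%) and 1 lower (3.57%), and with median scaling 4 and 3. Bmpr2, a receptor for BMPs, was 6.45-fold lower at its brightest probe (399 against 2576) and at a log2 fold of 1.01 at another. Inhba, a subunit of activin A, was 4.93-fold higher and the activin antagonist Fst 2.6-fold higher.

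Part of the cilium genes was lower. Cholangiocytes bear a primary cilium, which intraflagellar transport (IFT) proteins build and the Bardet-Biedl (BBS) complex supplies with membrane proteins. Of 40 cilium and polycystic disease genes above background 7 were over 2-fold lower (17.5%) and 0 higher, while the median was -0.06. The sign of that median depended on the genes kept, and it was 0.06 over genes above background on both arrays. The members furthest down were Bbs2, Bbs5, Bbs4, Ift88 and Ift52. Bbs2 read 189.5 with Alb-Cre+/+, 412 with Alb-Cre+/-, 789 with Mx1-Cre and 797 with the DDC diet, Bbs4 443, 1007, 1168 and 1478, and Ift88 221, 456, 492 and 739. The Alb-Cre+/+ array was the lowest EpCAM+ array for each, and the Mx1-Cre array was the nearest to DDC. The polycystin and fibrocystin genes Pkd1 (0.09) and Pkhd1 (0.45) did not pass 2-fold.

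Genes of motile cilia, a list drawn up after values were seen, also held lower members, and their count is descriptive only. Of 39 above background 12 were over 2-fold lower and 2 higher, with a median of -0.39. Over the 22 members above background on both arrays, 6 were lower and 0 higher. Cfap69, a protein of the central pair, read 286 with Alb-Cre+/+, 176 with Alb-Cre+/-, 1164 with Mx1-Cre and 2109 with the DDC diet. Drc1, Mns1 and Armc3 were above background in DDC cells (1070.5, 996 and 890.2) and not in Alb-Cre+/+ cells, and both other mutants read above background for each, with Mns1 at 1042 in Alb-Cre+/- cells. Foxj1, the master regulator of motile ciliogenesis, had a log2 fold of -0.34, and the higher members, Cfap43 and Ccdc39, were dim (226 and 239).

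**Figure D5:**
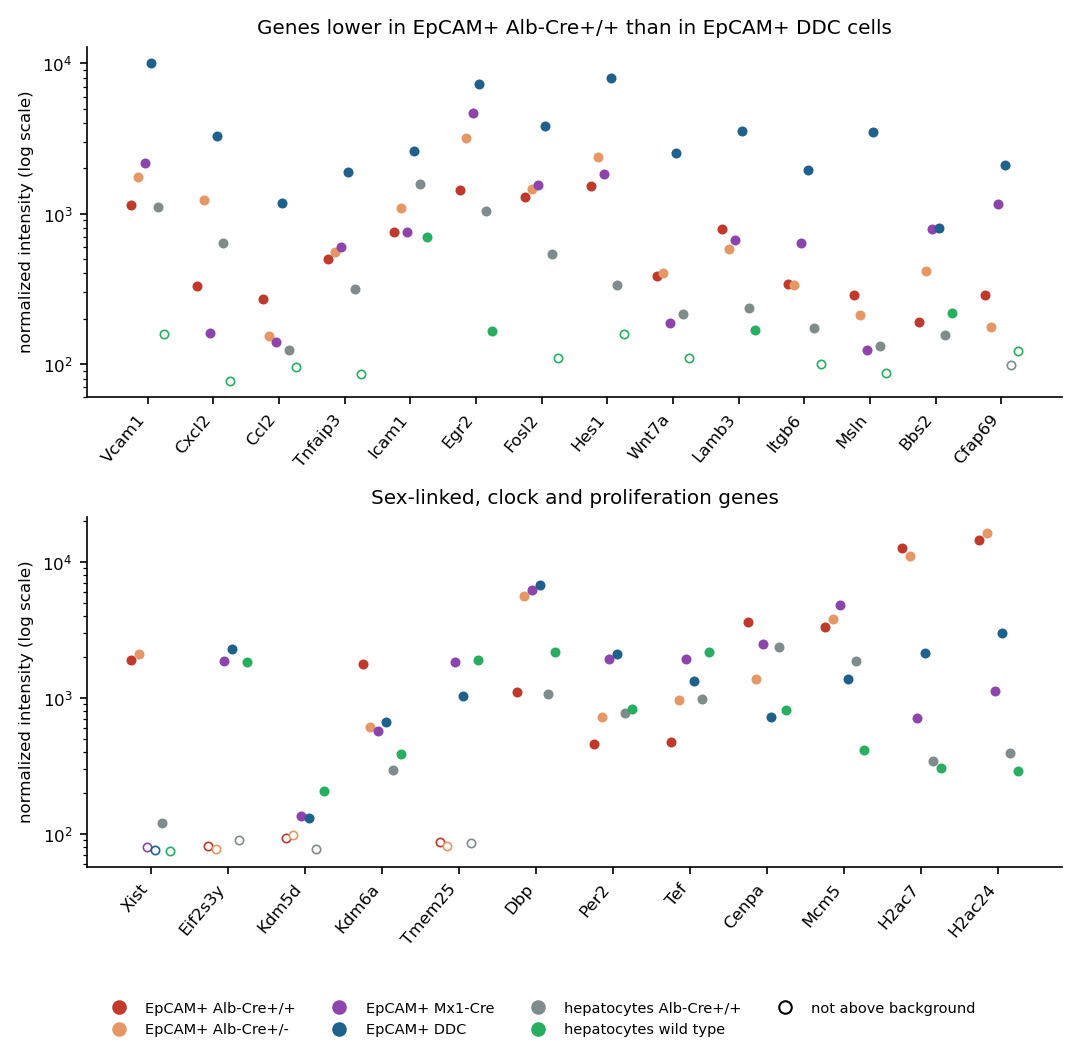
Normalized intensity (log scale) on the 6 arrays, coloured by condition, of genes lower in EpCAM+ Alb-Cre+/+ than in EpCAM+ DDC cells (upper panel) and of sex-linked, clock and proliferation genes (lower panel); open circles were not above background. Vcam1, Hes1 and Wnt7a are highest in DDC cells (10053, 8026 and 2521), and Eif2s3y is above background on 3 of 6 arrays.

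Several lists stood near or below the shares of all genes (8.02% higher and 7.73% lower), with the calls leaning lower under median scaling. Cytosolic ribosomal proteins gave 2 higher and 1 lower of 51, the mitochondrial respiratory chain 4 higher and 3 lower of 69, solute carriers 18 higher and 16 lower of 210 and p53 targets 1 higher and 2 lower of 27. Detoxification, proteasome and fatty acid oxidation lists had a share above that of all genes on the higher or the lower side. Of 13 UDP-glucuronosyl and sulfotransferase genes 3 were higher (23.1%) and 2 lower (15.4%), of 22 glutathione transferase genes 1 higher and 3 lower (13.6%), and of 35 cytochrome P450 genes 5 higher (14.3%) and 1 lower. With median scaling the P450 genes gave 3 higher and 4 lower and the glutathione transferases 0 higher and 8 lower. NRF2 targets gave 0 higher and 4 lower of 32: Cbr3, a carbonyl reductase (3.76-fold), Abcc3, Srxn1, sulfiredoxin (3.13-fold), and Mt1, while Hmox1 (-0.30), Gclc (-0.27) and Txnrd1 (0.14) did not pass 2-fold. The median of that list was 0.13, and -0.25 with median scaling. Proteasome subunits gave 0 higher and 5 lower of 37, with Psma4, a subunit of the core, 4.17-fold lower, and Psmd8 6.58-fold lower at its brighter probe and at a log2 fold of 0.57 at the other. Psmc3ip, counted among the lower ones by its name, encodes a recombination protein and no subunit. Fatty acid oxidation genes gave 1 higher and 5 lower of 29, the lower ones led by Acox2, a peroxisomal oxidase of bile acid precursors (3.69-fold), Etfdh, an electron carrier of the respiratory chain (2.92-fold), and Acadm, the medium-chain dehydrogenase (2.78-fold). With median scaling 7 ribosomal, 13 respiratory chain and 11 fatty acid oxidation genes were over 2-fold lower.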

How the data were processed

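RNA of 6 preparations, 1 per condition, was measured on Illumina mouse bead arrays. Per the file headers, the deposited intensity of each probe is its mean over beads without normalization, with a detection p-value against negative controls, a standard error and a bead count; the authors also deposited quantile normalized intensities. Intensities were computed in GenomeStudio, whose version is not given in the sources used here, and probes never past a detection p of 0.05 were removed before that normalization.

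Signals of the 21827 probes that reached a detection p below 0.05 on any array were brought to 1 distribution by quantile normalization of all 6 arrays (limma 3.58.1, R 4.3.3), raised on each array to its lowest signal above background, and taken to log2. Probe names came from the platform annotation: 34885 probes have 1 symbol, 18 several and 10378 none, and only the first were used. Of the 18722 probes above background on either array, 2722 had no single symbol. Each gene was read at its brightest probe; of 681 genes past 2-fold with 2 or more probes, 15 had a probe past 2-fold the other way and 529 one that did not pass 2-fold. With 1 array a side nothing was tested; the code was tested on simulated data. The number of arrays limits the precision.

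By rule, the text names the 10 largest and 10 smallest folds above background on both arrays and the 5 largest bounds each way. The rule also takes up to 5 members past 2-fold a side of each list, and Ddb1 and Epcam. Further members of the lists, such as defining ones, are named beside these. Kdm6a and Ighg1 are said to be chosen after their values were seen. The 73 lists and the genes compared were chosen with earlier results of these data known, and 3 more lists (leukocyte, motile cilium and clock genes) after values were seen. Promoter motifs were searched on both strands in RefSeq sequence of GRCm38.p6. Alternatives were median scaling, quantile normalization over fewer arrays, normexp correction (offset 16), the authors' normalized values, a detection p under 0.01, both arrays above background, the mean of all probes, no floor, folds relative to the median and, added after seeing the data, leaving out hepatocyte-bright genes.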

Additional observations from a re-analysis of the deposited data

How the results depend on the processing

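With 1 array a side no count has a spread between replicates, and the bead error covers 1 array only. No paired analysis was possible because each condition had 1 sample and no replicate numbers were given. Median scaling gave 605 higher and 1684 lower genes, with 529 of the 891 and 839 of the 858 calls kept. Under normexp background correction the numbers were 1524 and 1506. Under each other alternative that kept all 11104 genes the counts lay between 740 and 941 higher and between 694 and 935 lower, within 1.5 times the main counts. The authors' normalized values gave 880 and 857, and a detection p under 0.01 gave 871 and 785 of 9543 genes. The naming rule given above picked 330 genes past 2-fold, and none of their folds changed sign under any of the 11 alternatives. Some of these could not change a sign: leaving genes out keeps each fold as it was, and the median subtracted was only 0.038. Of these 330 genes, 45 no longer passed 2-fold with median scaling and 46 with the mean of all probes. Genes named beyond the rule, such as Cd74, Stab1, Zfp36, Kdm6a and Ighg1, were not followed in this way. Class II presentation genes over 2-fold higher numbered 7 to 12 and endothelial markers 8 to 15 over the alternatives, with 0 lower throughout. DNA replication genes ranged from 2 to 14 higher. Genes of a signal near background have bounds only, and a fold from them understates the difference.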

Other observations

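Mucosal defence genes were among those furthest above DDC cells. Of 17 mucin, trefoil and mucosal defence genes above background 5 were over 2-fold higher (29.4%) and 1 lower (5.88%) in Alb-Cre+/+ cells, and with median scaling 6 and 5. Over all genes 8.02% were higher and 7.73% lower. Tff3, the trefoil peptide of goblet cells, read 1912 in Alb-Cre+/+ cells, 439 in Alb-Cre+/- cells and 143 in DDC cells, and 4787 in mutant hepatocytes. Ltf, lactoferrin, read 873, 336, 282 and 629.7 on the same arrays. The Alb-Cre+/+ array was the highest EpCAM+ array for both. Alox5ap, the partner protein of 5-lipoxygenase in leukotriene synthesis, was 5.08-fold higher, while Alox5 was not above background on either array. Lpl, lipoprotein lipase, was 10.2-fold higher, and Mlxipl, the carbohydrate response factor ChREBP, 4.29-fold higher.

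Clock genes, a list drawn up after values were seen, gave 1 higher (7.14%) and 5 lower (35.7%) of 14 above background, with a median of -0.32. Over all genes 8.02% were higher and 7.73% lower. Dbp, a clock output factor, read 1098 with Alb-Cre+/+, 5599 with Alb-Cre+/-, 6263 with Mx1-Cre and 6794 with the DDC diet. Per2, a repressor of the clock, read 460.0, 719, 1947 and 2097. The Alb-Cre+/+ array was the lowest of the EpCAM+ arrays for both. Clock itself was 2.04-fold higher, and Arntl (0.14) and Per1 (-0.33) had log2 folds that did not pass 2-fold. The labels give no time of day for any preparation.

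Among 958 genes whose signal ranged over more than 3 log2 units across the 6 arrays, the one whose pattern was most like that of the Y-linked Eif2s3y was Tmem25 on chromosome 9, with a Pearson r of 0.981 over 6 arrays, and the next was Pou6f1 on chromosome 15 at 0.839. The genes most like Xist were Tcof1 (0.904), Zfp148 (0.892), Clec10a (0.888), Sox4 (0.877), H2ac7 (0.875) and H2ac22 (0.87), all of them autosomal. The last 4 of these are described above as higher in Alb-Cre+/+ cells. What these patterns owe to sex was not tested. The points are single arrays of different cell types and models.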
